A study of Mus musculus with 12 samples.

Results

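The genes described here are 10 precursors of neuropeptides in the mouse hippocampus: Crh, Nts, Sst, Tac1, Tac2, Cck, Vip, Adcyap1, Cort and Trh. They were chosen by gene symbol, as every probe set whose annotation carried one of these symbols and no other. All 10 were found, on 11 probe sets of the 45141 on the array, since Tac1 had a pair of them. The arrays measured 17097 named genes in all. Expression was measured on 12 Affymetrix Mouse MG-430 PM arrays of hippocampus from the injected side of the brain, 3 arrays in each of 4 groups. The KA groups, at 8 h and at 14 d, received kainic acid (KA), which activates glutamate receptors of the kainate class, at 0.3 µg in a volume of 0.2 µl into the amygdala. This sets off status epilepticus, a prolonged seizure. Lorazepam, a benzodiazepine that curbs seizures, followed KA by 40 min at 6 mg/kg into the peritoneum. The control groups, at 8 h and at 14 d, received 0.2 µl of the vehicle, phosphate-buffered saline, into the amygdala and had no seizures, and the labels do not say clearly whether they too were given lorazepam. No strain, sex or age is given in the sources used here, and nothing says that each array is a separate animal. The p-values therefore measure the spread among these samples alone, and that spread may be technical.

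Neuropeptides are made as long precursors that prohormone convertases cut and other enzymes trim in the secretory pathway, and they are stored in dense-core vesicles that empty mostly during strong or repetitive firing. In the hippocampus many of them, among them somatostatin, cholecystokinin and vasoactive intestinal peptide, mark classes of GABAergic interneurons, and they act through G protein-coupled receptors on nearby cells. Transcription of several precursors is known to follow neuronal activity through cyclic AMP response elements (CRE), the sites of CREB-family factors, and AP-1 elements, the sites of Fos and Jun family dimers.

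The promoters of the 3 genes whose probe sets rose after KA and have an entry in the table are printed to show where these elements lie. Sequences and gene positions are those of RefSeq on GRCm38.p6. Each promoter runs from 250 bases before to 50 bases after the start given for that promoter, 5′ to 3′ on the strand of the gene. For Sst, Vip and Adcyap1 that start lies inside the gene span given further below, and positions count from the promoter's own start. Capitals mark the CRE (TGACGTCA), the CRE core (TGACG, or CGTCA on the other strand) and the AP-1 element (TGANTCA), searched on both strands. A CRE holds a core on each strand that overlap, so it counts under both.
Nts, chr10:102490369-102490668, minus strand: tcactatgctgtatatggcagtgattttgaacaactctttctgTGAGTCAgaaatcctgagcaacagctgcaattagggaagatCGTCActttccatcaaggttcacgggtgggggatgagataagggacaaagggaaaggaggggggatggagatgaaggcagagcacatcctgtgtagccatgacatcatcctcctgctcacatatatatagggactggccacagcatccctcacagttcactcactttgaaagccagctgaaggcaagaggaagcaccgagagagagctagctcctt
Sst, chr16:23890795-23891094, minus strand: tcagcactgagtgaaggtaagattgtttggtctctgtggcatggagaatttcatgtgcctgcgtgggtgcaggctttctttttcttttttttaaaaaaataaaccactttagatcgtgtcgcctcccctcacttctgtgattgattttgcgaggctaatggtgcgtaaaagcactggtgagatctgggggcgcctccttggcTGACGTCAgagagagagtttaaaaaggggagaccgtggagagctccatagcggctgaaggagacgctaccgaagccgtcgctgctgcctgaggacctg
Tac1, chr6:7554811-7555110, plus strand: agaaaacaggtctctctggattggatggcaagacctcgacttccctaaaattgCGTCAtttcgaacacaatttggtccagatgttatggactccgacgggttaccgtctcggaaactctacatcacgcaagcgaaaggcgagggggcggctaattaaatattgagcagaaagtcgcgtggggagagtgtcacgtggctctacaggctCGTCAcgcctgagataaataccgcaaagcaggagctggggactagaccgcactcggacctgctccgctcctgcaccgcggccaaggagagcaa
The table held 10 promoters for 9 of the 10 genes, all but Crh. Of those 9 genes, Sst alone had a whole CRE, at position -48 from the start (chr16:23890885-23890892), and 1.79% of all 32851 promoters of this length had one. Nts alone had an AP-1 element, at -207 (chr10:102490619-102490625), which 7.81% of all promoters had. The CRE core was found in 8 of the 9 genes, all but Tac2, against 20.8% of all promoters. These are matches of letters only.

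The CRE cores nearest the start are shown for the 8 genes in windows of 21 bases, the core in capitals.
Nts, chr10:102490572-102490592, minus strand: gggaagatCGTCActttccat
Sst, chr16:23890877-23890897, minus strand: ttggctgaCGTCAgagagaga
Tac1, chr6:7555010-7555030, plus strand: tacaggctCGTCAcgcctgag
Cck, chr9:121495729-121495749, minus strand: ctggactgCGTCAgcactggg
Vip, chr10:5639131-5639151, plus strand: cactactgTGACGtctttcgg
Adcyap1, chr17:93198918-93198938, plus strand: taggatgcTGACGtcttttac
Cort, chr4:149126769-149126789, minus strand: ggcttgtgCGTCAccgcgtga
Trh, chr6:92244734-92244754, minus strand: ggctctgcCGTCAgcgcccct
The Sst and Cort cores lay at -45 and -18 from their starts and the Nts core at -166. The core was present in Nts, Sst and Tac1, each with a probe set that rose at 8 h. It was also present in Cck, Vip and Cort, whose changes did not pass the test. Adcyap1 and Trh, which did not enter the test, carried it too. Tac2, whose change did not pass, had none, and for Crh no promoter was available. The part of these elements in the rises was not tested.

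Array medians of log2 intensity ran from 4.90 to 4.95, and correlations within a group from 0.989 to 0.997. The background, the mean of 8 GC-rich probe sets on each array, lay between 4.10 and 4.68. All 10 measured hippocampal neuron markers were above it on all 12 arrays, of 11 listed. Their levels were not all unchanged (adjusted p under 0.05, limma). At 8 h 1 rose (Nectin3) and 3 fell (Dsp, Calb1 and Neurod6), where 7.92% of all genes tested rose and 9.55% fell. At 14 d 0 rose and 2 fell, where 1.99% and 0.57% did. Fos, an immediate early gene, was at least 43.4-fold higher at 8 h (adjusted p = 1.89e-06, limma). The KA arrays at 8 h differed from the other 9 arrays in sex-linked genes too: Xist ranged from 7.39 to 8.71 on them and from 4.19 to 4.67 elsewhere, and Eif2s3y from 5.57 to 6.83 against 7.46 to 8.09. The labels' time entries for the arrays titled 8 h read 8, 9 and 10 h for the controls and 11, 12 and 13 h for KA. Both of these differences coincide with the groups at 8 h and cannot be told apart from the effect of KA there. The summed level of 6 choroid plexus markers was 9.82 (log2) on the third KA array at 8 h and ran from 11.67 to 12.41 in the other groups. Without that array the changes at 8 h were 2.76 for Crh, 1.49 for Nts and 0.72 for Sst.

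At 8 h after KA, Crh, Nts and Sst were higher than in the vehicle controls, and 1 of the probe sets of Tac1 was too. Crh rose most, by 2.76 on the log2 scale, followed by Nts, Tac1 and Sst. At 14 d none of the 10 genes passed the test, and the differences between the changes at the 2 times were themselves significant for Crh, Nts and Sst. Of the 10 genes, 8 were tested, meaning above the 30th percentile of the array on at least 3 arrays. A gene was called at a Benjamini-Hochberg adjusted p under 0.05 over all 13853 genes tested, in limma. At 8 h, 3 of the 8 were called, all of them higher, where 17.5% of all genes were called and 7.92% were called higher. This count is a description: Crh entered the test only through the KA arrays on which it was high, and Adcyap1 and Trh did not enter it. Crh, Nts and Sst were also the ones whose groups did not overlap, as those of 33.8% of all genes tested did not. The median change of the 8 was 0.21, against -0.017 for all genes tested. These tissues were measured in bulk, so more or fewer cells of a type and more or less RNA per cell cannot be told apart.

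**Figure D1:**
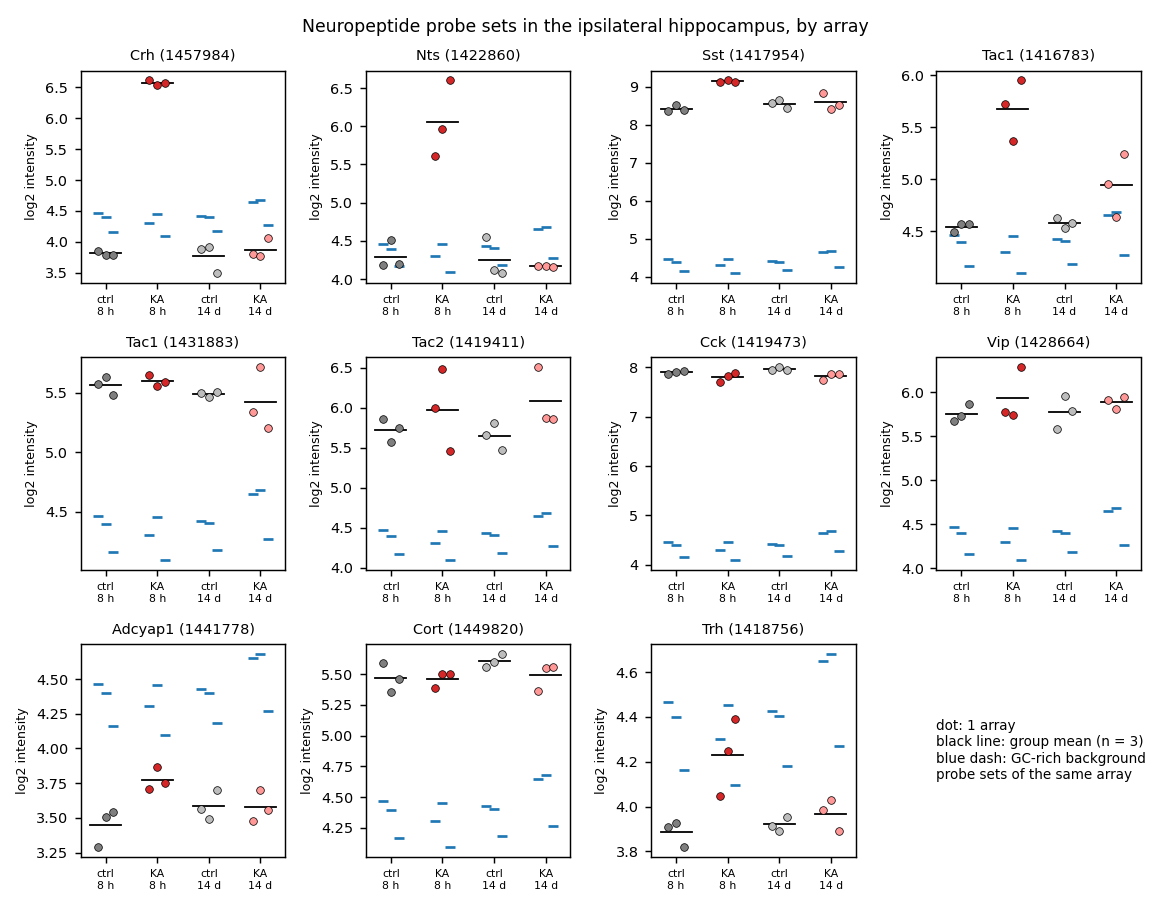
Log2 intensity (vertical axis) of each of the 11 probe sets on each of the 12 arrays, in the 4 groups on the horizontal axis, with the group mean as a black line and the background of each array as a blue dash. On the Crh, Nts, Sst and Tac1 (1416783) panels the 3 KA arrays at 8 h lie above all other arrays, while Adcyap1 lies below the background on every array.

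Crh (chr3:19693401-19695396) encodes corticotropin-releasing hormone, the peptide that starts the hormonal stress response and that is also made by hippocampal interneurons. Its log2 intensity in the 8 h controls was 3.86, 3.79 and 3.79, below background on all 3 arrays. In the KA group at 8 h it was 6.61, 6.54 and 6.56, above background on all 3. The groups lay far apart, and the 3 arrays of each group lay close together (SD 0.040 in the controls and 0.039 after KA). Crh rose by 2.76 ± 0.11 (SE, n = 3 a group, adjusted p = 8.63e-10, limma), which is at least 4.69-fold when the background takes the place of the dim control values. It entered the test only through these 3 KA arrays, so its being called carries no more than the values themselves. At 14 d the controls read 3.89, 3.92 and 3.49 and the KA arrays 3.80, 3.77 and 4.06, all below background and overlapping. Its level at 14 d was thus not detectable in either group.

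Nts (chr10:102481756-102490418) encodes the precursor of neurotensin and neuromedin N, peptides that modulate dopamine signalling, body temperature and feeding. Its log2 intensity was 4.18, 4.51 and 4.19 in the 8 h controls, of which 2 arrays were above background. It was 5.61, 5.96 and 6.60 in the KA group at 8 h. The lowest KA array lay above the highest control, and the KA arrays were spread (SD 0.50). Nts rose by 1.76 ± 0.19 (SE, n = 3, adjusted p = 1.02e-05, limma), at least 3.18-fold. At 14 d the controls read 4.55, 4.12 and 4.08 and the KA arrays 4.16, 4.18 and 4.15. The KA values lay inside the range of the controls, and no KA array was above background.

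Sst (chr16:23889573-23891342) encodes somatostatin, an inhibitory peptide of dendrite-targeting interneurons in the hilus and the stratum oriens. Unlike Crh and Nts it was above background on all 12 arrays. Its log2 intensity was 8.37, 8.53 and 8.38 in the 8 h controls and 9.13, 9.18 and 9.14 in the KA group at 8 h, with no overlap. Sst rose by 0.72 ± 0.10 (SE, n = 3, 95% interval 0.50 to 0.93, adjusted p = 0.000144, limma), or 1.64-fold. At 14 d it read 8.58, 8.65 and 8.43 in the controls and 8.83, 8.43 and 8.54 after KA. These values overlapped, with a change of 0.05 (95% interval -0.17 to 0.26).

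Cort (chr4:149125034-149126763) encodes cortistatin, a close relative of somatostatin that binds the same receptors. At 8 h its log2 intensity was 5.59, 5.36 and 5.46 in the controls and 5.39, 5.50 and 5.50 after KA. The groups overlapped, and the change was -0.0049 (95% interval -0.19 to 0.18), an estimate that turned slightly positive under cyclic loess scaling. The interval lay below the estimate for Sst at the same time. At 14 d Cort read 5.56, 5.60 and 5.66 in the controls and 5.37, 5.55 and 5.56 after KA, a change of -0.12 that did not pass the test (adjusted p = 0.656, limma).

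Tac1 (chr6:7555061-7562978) encodes the precursor of the tachykinins substance P and neurokinin A, and its probe sets disagreed. The one drawn from the RefSeq transcript (1416783) read 4.49, 4.56 and 4.57 in the 8 h controls and 5.72, 5.36 and 5.95 after KA. It rose by 1.14 ± 0.15 (SE, n = 3), or 2.20-fold, with an adjusted p of 8.48e-05 over all 32790 probe sets that passed the filter, of which 7.48% were called higher. The one drawn from a cDNA clone (1431883), which stood for the gene in the test over genes because its mean was higher, read 5.57, 5.63 and 5.48 in the controls and 5.65, 5.55 and 5.59 after KA. Its groups overlapped and its change was 0.04 (95% interval -0.19 to 0.27, adjusted p = 0.889). Both were above background at 8 h on all 6 arrays, so the call on Tac1 at 8 h depends on which one is read. At 14 d the first read 4.63, 4.53 and 4.57 in the controls and 4.95, 4.64 and 5.24 after KA, with no overlap, although the lowest KA array stood level with the highest control. Its change at 14 d, 0.37 ± 0.15 (SE), did not pass the test over all probe sets (adjusted p = 0.324, limma).

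Tac2 (chr10:127724478-127731768) encodes the precursor of neurokinin B, the tachykinin that prefers the receptor encoded by Tacr3. At 8 h its log2 intensity was 5.86, 5.57 and 5.74 in the controls and 5.99, 6.48 and 5.45 after KA. The KA arrays were spread (SD 0.51) and reached both above and below the controls, and the change of 0.25 ± 0.21 (SE, n = 3) did not pass the test (adjusted p = 0.510, limma). Without the second KA array at 8 h the change was -0.0046, and without the third it was 0.51 (adjusted p = 0.0834). At 14 d it read 5.66, 5.81 and 5.47 in the controls and 6.50, 5.87 and 5.85 after KA. These groups did not overlap, and the change of 0.43 ± 0.21 (SE) missed the threshold (95% interval -0.020 to 0.88, adjusted p = 0.431). Without the first KA array at 14 d it was 0.21.

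The arrays with the highest Tac2 in the KA groups, the second at 8 h and the first at 14 d, also had the highest Tcf7l2 of their group, a transcription factor of the thalamus. Tcf7l2 read 7.57 on the second KA array at 8 h and 6.04 and 6.13 on the other two, and 7.06, 6.34 and 6.71 on the KA arrays at 14 d. Slc17a6, the glutamate transporter of thalamic relay neurons, read 6.55 on that array at 8 h and 5.14 and 5.23 on the other two, while at 14 d it read 5.09, 5.19 and 4.56. Prkcd, listed here as a marker of striatum and central amygdala, read 6.46 on that array at 8 h. At 14 d it read 6.26, 5.87 and 6.27 on the KA arrays, highest on the third. These genes were picked after their values were seen. The summed level of the 7 thalamic markers, all of them measured and Gbx2 alone at background on every array, ranged from 9.39 to 9.50 in the 8 h controls and from 9.13 to 9.73 after KA, and from 9.39 to 9.42 and 9.21 to 9.49 at 14 d. The part of thalamic RNA in the Tac2 values was not tested.

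**Figure D2:**
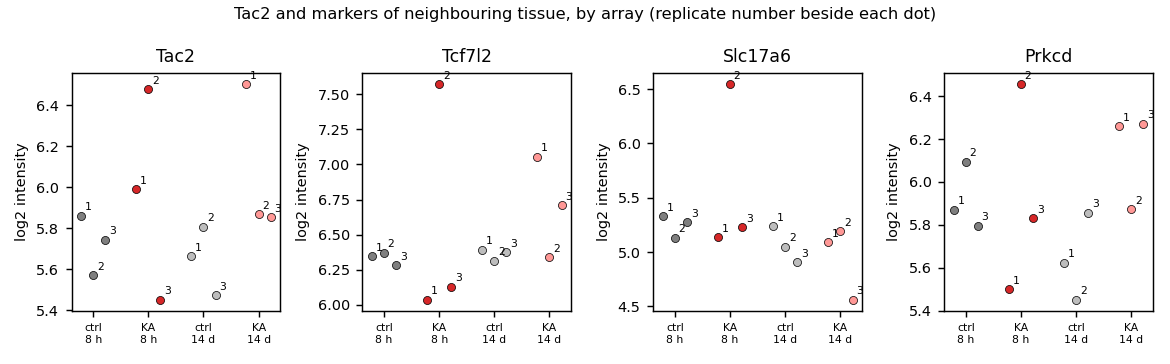
Log2 intensity (vertical axis) of Tac2 and of Tcf7l2, Slc17a6 and Prkcd, markers of neighbouring tissue, on each array in the 4 groups, each dot numbered by its replicate. The second KA array at 8 h is the highest dot of its group on all 4 panels, at 6.48 for Tac2 and 7.57 for Tcf7l2.

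Cck (chr9:121489824-121495694) encodes cholecystokinin, the peptide of a large class of basket cells and, at lower levels, of pyramidal cells. At 8 h its log2 intensity was 7.86, 7.90 and 7.93 in the controls and 7.71, 7.82 and 7.88 after KA. The groups overlapped, with a change of -0.10 (95% interval -0.26 to 0.07, adjusted p = 0.475, limma). At 14 d it read 7.96, 8.01 and 7.96 in the controls and 7.74, 7.88 and 7.87 after KA. The groups did not overlap, and the change of -0.14 (95% interval -0.31 to 0.020) was 1.11-fold lower and did not pass the test (adjusted p = 0.483).

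Vip (chr10:5639193-5647617) encodes vasoactive intestinal peptide, made by interneurons that inhibit other interneurons. At 8 h its log2 intensity was 5.67, 5.73 and 5.87 in the controls and 5.77, 5.74 and 6.28 after KA. A single KA array was high and the groups overlapped, with a change of 0.18 (95% interval -0.10 to 0.46, adjusted p = 0.436, limma). Without that array, the third, it was 0.0011. At 14 d the controls read 5.58, 5.95 and 5.78 and the KA arrays 5.91, 5.81 and 5.94, which overlapped (change 0.12, 95% interval -0.16 to 0.40).

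Adcyap1 (chr17:93198245-93206541), which encodes PACAP, a relative of vasoactive intestinal peptide, was below background on all 12 arrays. Trh (chr6:92242061-92244650), which encodes thyrotropin-releasing hormone, was above background on 1 array only, the third of the KA group at 8 h. Neither entered the test. With no filter on low values, where 6.35% of 17097 genes were called higher at 8 h, both were called: Adcyap1 read 3.29, 3.51 and 3.54 in the controls and 3.70, 3.87 and 3.75 after KA (adjusted p = 0.0245, limma), and Trh read 3.91, 3.93 and 3.82 and 4.05, 4.25 and 4.39 (adjusted p = 0.0143). Neither group pair overlapped, but no fold is given, because the controls were at background and nearly all KA values were as well. At 14 d the changes were -0.0068 for Adcyap1 and 0.05 for Trh.

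**Figure D3:**
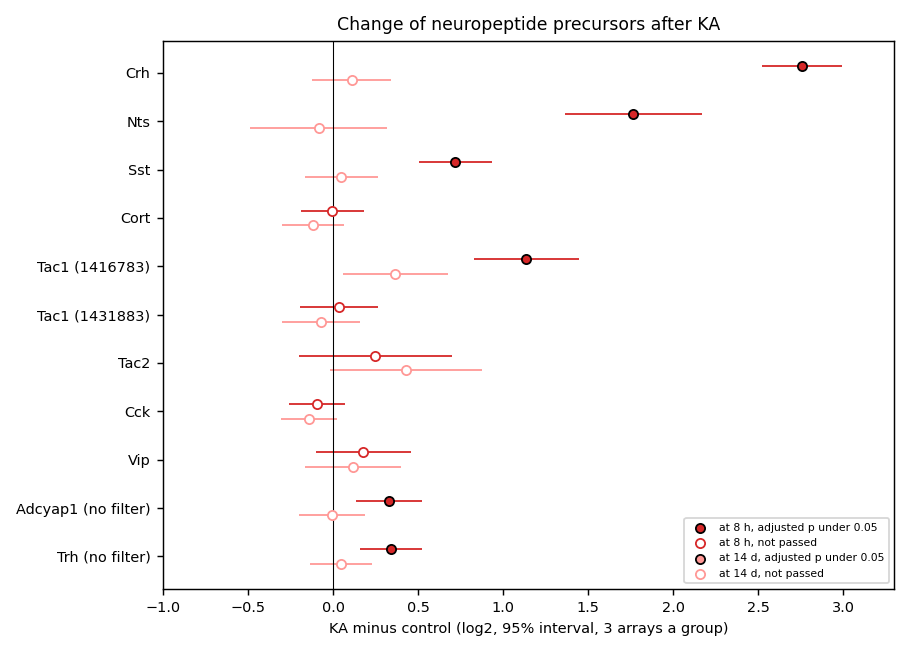
Change after KA (horizontal axis, KA minus control, log2) with its 95% interval for each gene or Tac1 probe set, at 8 h and at 14 d, filled where the adjusted p was under 0.05. The 8 h intervals of Crh (2.52 to 2.99), Nts (1.36 to 2.17) and Sst (0.50 to 0.93) stand clear of 0, and the 14 d interval of each of the 3 spans it.

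At 14 d after KA no member was called, and 0 of the 8 tested had an unadjusted p under 0.05 (limma), where 2.56% of all genes tested were called, 1.99% higher and 0.57% lower. The median change of the 8 was -0.013, against -0.007 for all genes. Tac2, Cck and Cort were the 3 of 8 whose groups did not overlap, where 16.5% of all genes tested did not. When arrays were weighted by their quality, these same 3 genes were called at 14 d, where 15.2% of all genes tested were called in that fit (2099 of 13853). The calls were Tac2 higher by 0.72 (adjusted p = 0.00263) and Cck and Cort lower, at -0.23 (adjusted p = 0.0117) and -0.21 (adjusted p = 0.0400).

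The changes at the 2 times were compared directly, as the change at 14 d minus the change at 8 h. Of the 8 tested genes, 3 were called, all lower at 14 d, where 5.52% of all genes were called, 2.45% higher and 3.06% lower. The difference was -2.65 ± 0.15 (SE) for Crh (adjusted p = 1.17e-07, limma), -1.85 ± 0.27 for Nts (adjusted p = 0.000569) and -0.67 ± 0.14 for Sst (adjusted p = 0.0107). For Crh this value rests on a level measured above background in the KA group at 8 h alone, the other 3 groups being below it, and on a gene tested only because of those arrays, so its size and p are those of dim values and no bound. The first probe set of Tac1 differed by -0.77 ± 0.21 (adjusted p = 0.0462 over all probe sets). For Tac2 the estimate ran the other way, 0.18 ± 0.30, and did not pass the test. Between the control groups, at 14 d against 8 h, none of the 8 was called and 0 had an unadjusted p under 0.05 (limma), where 1.8% of all genes were called. The changes in controls ran from -0.08 for Tac2 to 0.14 for Cort.

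For each gene called, the 3 genes most alike over the 12 arrays were found by Pearson correlation among the other 13845 tested. For Crh they were Csrnp1 (0.993), Sphk1 (0.992) and Nop53 (0.988). For Nts they were Prkar2a (0.970), Maff (0.970) and Isoc1 (0.969). For Sst they were Ranbp9 (0.977), H2az1 (0.972) and Osgin2 (0.959). In each of these correlations the 3 KA arrays at 8 h stand above the other 9 for Crh, Nts or Sst, and the arrays share their groups.

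The receptors and binding proteins of the 10 peptides changed in both directions. Of 21 listed, 18 were tested. At 8 h 5 rose and 3 fell, with a median change of -0.02, where 7.92% of all genes tested rose and 9.55% fell. At 14 d 1 rose and 1 fell, where 1.99% of all genes tested rose and 0.57% fell. The 3 not tested, Tacr2, Cckar and Vipr2, were at background on every array.

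Among the receptors tested at 8 h, the largest change was in a somatostatin receptor. Sstr2, a receptor that opens potassium channels and lowers cyclic AMP, read 6.58, 6.64 and 6.63 in the 8 h controls and 8.51, 8.48 and 8.98 after KA. The groups did not overlap, and Sstr2 rose by 2.03 ± 0.15 (SE, n = 3), or 4.10-fold (adjusted p = 2.62e-07, limma). Sstr1 rose 1.58-fold (adjusted p = 0.000362), while Sstr4 was 1.25-fold lower (adjusted p = 0.00450). Sstr5 did not pass the test, with a change of 0.0073. The probe sets of Sstr3 disagreed at 8 h: the one used changed by 0.06 without passing, and the other (1441603), also above background on all 12 arrays, rose by 0.39 (adjusted p = 0.0134 over all probe sets). Sstr2 was the one receptor higher at 14 d too, at 7.93, 7.28 and 7.44 against 6.87, 6.72 and 6.97 in the controls. That was 1.62-fold (adjusted p = 0.0196), less than at 8 h by 1.34 (log2 difference of changes -1.34, adjusted p = 0.00145). The call at 14 d was lost without the first 14 d control (adjusted p = 0.0651), the second (0.111) or the first KA array (0.0967). Sstr4 stayed 1.34-fold lower at 14 d (adjusted p = 0.00265), with 9.74, 9.75 and 9.76 in the controls and 9.33 on each KA array.

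The neurotensin receptor Ntsr2, which in brain is made mostly by astrocytes, read 9.33, 9.31 and 9.26 in the 8 h controls and 8.80, 8.95 and 8.77 after KA. It was 1.38-fold lower with no overlap (adjusted p = 0.00176, limma), at the time when Nts was higher. At 14 d it read 9.19, 9.31 and 9.34 in the controls and 9.75, 9.49 and 9.55 after KA, above the controls on every array but short of the threshold (adjusted p = 0.0781). The changes at the 2 times differed by 0.78 (adjusted p = 0.00129). Ntsr1 and Sort1, the other neurotensin receptors listed, did not pass the test at either time.

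For Crh, its main brain receptor Crhr1 changed by -0.05 at 8 h (adjusted p = 0.846, limma) and by -0.31 at 14 d (adjusted p = 0.303), and Crhr2 did not pass the test. Crhbp, the secreted protein that binds the hormone, was 1.34-fold higher at 8 h at the edge of the threshold (adjusted p = 0.0490), and its adjusted p reached 0.167 across the alternatives. Adcyap1r1, the receptor of PACAP, was 1.49-fold lower at 8 h (adjusted p = 0.00213) on the probe set used, and its other 2 probe sets were lower as well, by log2 changes of -0.68 and -0.59. Vipr1, a receptor shared by vasoactive intestinal peptide and PACAP, was 1.43-fold higher (adjusted p = 0.0251, limma). Its other probe set changed by 0.19 without passing (adjusted p = 0.210). The Vipr1 call was lost without the first or second control or the first or the third KA array at 8 h, with adjusted p up to 0.115. Tacr3, the neurokinin B receptor, was at least 1.28-fold higher (adjusted p = 0.0166), a call lost without the first control (0.0847) or the first KA array (0.0686). Its other probe set was at background on every array. Tacr1, Cckbr, Trhr and Trhr2 did not pass the test at either time.

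**Figure D4:**
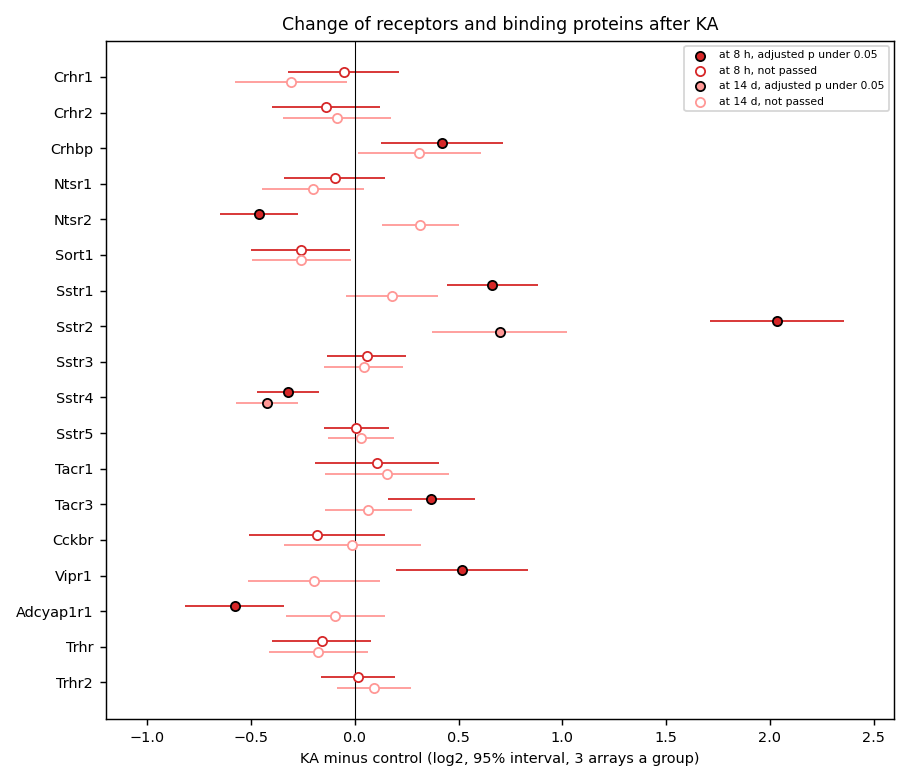
Change after KA (horizontal axis, KA minus control, log2) with its 95% interval for the 18 receptors and binding proteins tested, at 8 h and at 14 d, filled where the adjusted p was under 0.05. Sstr2 lies farthest to the right at both times, at 2.03 and 0.70, and Sstr4 lies left of 0 at both, at -0.32 and -0.42.

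Some of the enzymes and granins of the secretory pathway that handles these precursors rose at 8 h. Of 11 listed, 10 were tested, and 5 rose and 0 fell, with a median change of 0.33, where 7.92% of all genes tested rose. Cpe, Chgb, Scg3, Scg5 and Pcsk1n did not pass the test, with changes from -0.16 for Scg5 to 0.05 for Chgb. Scg2, a granin of dense-core vesicles that yields secretoneurin, rose 5.34-fold (adjusted p = 1.54e-07, limma), from 7.11, 7.26 and 7.32 to 9.64, 9.39 and 9.90. Pcsk1, a prohormone convertase, rose 4.53-fold (adjusted p = 1.23e-09), from 5.82, 6.01 and 6.05 to 8.20, 8.09 and 8.11. Neither gene's groups overlapped. Pam, which amidates the ends of peptides such as substance P and cholecystokinin, rose 1.82-fold (adjusted p = 0.000349), and Chga, a granin, 1.78-fold (adjusted p = 1.46e-05). At 14 d 0 of the 10 were called, although 5 had an unadjusted p under 0.05 (limma).

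Among 20 other neuropeptide precursors listed, 14 were tested. At 8 h 4 of them rose, with a median change of 0.10 over the 14, where 7.92% of all genes tested rose, and at 14 d 4 rose, with a median of 0.07, where 1.99% rose. Penk, the enkephalin precursor, and Npy, neuropeptide Y, were called at both times. Penk rose 2.19-fold at 8 h (adjusted p = 0.00275, limma) and 4.92-fold at 14 d (adjusted p = 1.82e-05), and Npy 2.14-fold (adjusted p = 0.00210) and 2.52-fold (adjusted p = 0.00195). At 14 d Penk read 9.22, 8.26 and 9.53 after KA and 6.50, 6.75 and 6.87 in the controls. Vgf and Pnoc were the others that rose at 8 h, 2.19-fold and 2.15-fold, and Vgf (1.58-fold, adjusted p = 0.0204) and Grp (2.01-fold, adjusted p = 0.0330) at 14 d. Both of those 14 d calls were lost without the first or the second control or the first or the third KA array, with adjusted p up to 0.113 for Vgf and 0.144 for Grp, and that of Grp also without the third control (0.0842).

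Of 20 genes of the CREB and cyclic AMP pathway, 18 were tested, and at 8 h 5 rose and 3 fell, with a median change of 0.12, where 7.92% of all genes tested rose and 9.55% fell. Prkar2a, a regulatory subunit of protein kinase A, rose 1.66-fold (adjusted p = 1.78e-05, limma), and of its 3 other probe sets 1 rose (log2 change 0.87) and 2 did not pass the test (0.22 and 0.17). Pde4b, which breaks down cyclic AMP, rose 1.84-fold (adjusted p = 0.000124). Sik1, a kinase that holds back CREB coactivators, rose 1.35-fold (adjusted p = 0.0138), and Prkaca, a catalytic subunit of protein kinase A, was 1.33-fold lower (adjusted p = 0.0162), though its other probe set (log2 change -0.36) did not pass. The Sik1 call was lost without the first (adjusted p = 0.0591) or the third (0.0568) KA array at 8 h, and the Prkaca call without the third control (0.0740) or the first KA array (0.0890). At 14 d 0 of the 18 were called, and 2 had an unadjusted p under 0.05 (limma).

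No gene of the interneuron marker list, which leaves out Sst and the other neuropeptides, was called higher at 8 h. Of 16 listed, 15 were tested, and at 8 h 0 rose and 4 fell, with a median change of -0.19, where 9.55% of all genes tested fell. Pvalb, the calcium-binding protein of fast-spiking basket cells, was 1.46-fold lower (adjusted p = 0.00354, limma), Erbb4 1.43-fold (adjusted p = 0.00291), Nos1 1.37-fold (adjusted p = 0.00257) and Kcnc1 1.22-fold lower (adjusted p = 0.0426). The Kcnc1 call was lost under 11 of the alternatives, among them leaving out the second or the third control or any KA array at 8 h (adjusted p up to 0.201). Of the 3 other probe sets of Nos1 and of Kcnc1, 1 each passed the test, and all 6 estimates were below 0. Gad1, which makes GABA, read 9.48, 9.58 and 9.57 in the 8 h controls and 9.39, 9.57 and 9.67 after KA, a change of -0.00094 that turned positive under cyclic loess scaling. The summed level of the 15 markers ranged from 12.01 to 12.17 (log2) in the 8 h controls and from 11.84 to 12.09 after KA. At 14 d Pvalb alone was called, 1.64-fold lower (adjusted p = 0.00205, limma), where 0.57% of all genes tested fell.

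Markers of tissue that borders the hippocampus were read beside these results. For cortex and amygdala, 8 of 8 listed markers were measured, Rspo1 at background on every array, and their summed level ranged from 9.90 to 10.04 (log2) in the 8 h controls and from 9.65 to 9.98 after KA. Of the 7 tested, Fezf2 was 2.32-fold higher at 8 h (adjusted p = 1.90e-05, limma) and Rorb 1.31-fold (adjusted p = 0.0236), and Lamp5 was 1.52-fold lower (adjusted p = 0.000967). The Rorb call was lost without the second control or the first or the third KA array at 8 h (adjusted p up to 0.132). For the hypothalamus 6 of 7 were measured, Sim1 at background on every array, with sums from 7.89 to 7.96 in the controls and from 7.93 to 8.01 after KA at 8 h. None of its 5 tested markers was called at 8 h, and 0 had an unadjusted p under 0.05 (limma). For striatum and central amygdala 5 of 7 were measured, Drd2 at background on every array, with sums from 8.33 to 8.43 and from 8.22 to 8.63, and Drd1 was 1.32-fold higher (adjusted p = 0.0452), a call lost under 11 of the alternatives, among them leaving out the first or the third control or the first or the second KA array at 8 h (adjusted p up to 0.172). The part of such tissue in the rises of Crh, Nts, Sst and Tac1 was not tested.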

How the data were processed

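Of total RNA from the ipsilateral hippocampus, 5 ng went through 22 cycles of amplification and 8 µg of the cDNA were labelled, per the labels' protocols. The authors' deposited values are log2 intensities, and the submitters' processing notes name RMA and affy, with no version or order. The table itself does not state its scale, which was read from the range of its values. Groups came from the sample titles, each of which opens with the word Input, a word left unexplained there.

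A gene was read from its brightest probe set on average, and 28898 of 45141 probe sets carried 1 symbol. limma 3.58.1 (R 4.3.3) was fitted to all 12 arrays with 4 group means, leaving 8 residual degrees of freedom, and tests were two-sided. The fit was tested on simulated data. Where an array of the dimmer group was at or below its background, that background replaced it and the fold reads "at least". Marker sums are log2 of summed linear intensities. Folds otherwise are differences of mean log2 values.

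The members and gene lists were chosen with earlier results of these data known. From each list up to 4 called genes a comparison were named by adjusted p. Crhbp, Vipr1, Tacr3, Vgf and Pnoc where beyond that number, the receptors that did not pass, Eif2s3y, Tcf7l2, Slc17a6 and Prkcd were named after their values were seen. Arrays with the same replicate number deviated together at 8 h (correlations 0.155, 0.138 and 0.413), a pairing taken from the data alone. At 14 d these correlations were 0.164, 0.068 and 0.463, and control 1 with KA 2 gave 0.349. Control 3 deviated against KA 1 and KA 2 at both times (-0.252 and -0.260 at 8 h, -0.166 and -0.368 at 14 d). At 8 h replicates 1 and 2 were not told apart by number: control 1 with KA 2 gave 0.163 and control 2 with KA 1 gave 0.138. Alternatives covered the filter, probe set, scaling, variance model, replicate block, single arrays left out and threshold.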

Additional observations from a re-analysis of the deposited data

Results flagged for a closer look

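The change after KA differed between 8 h and 14 d for 3 of the 8 neuropeptide genes tested. This is by the test of the difference itself in limma, where 5.52% of all genes tested were called, 2.45% higher and 3.06% lower. For Crh the change at 14 d minus that at 8 h was -2.65 (log2, adjusted p = 1.17e-07), with every 8 h KA array above every 8 h control and the 14 d groups overlapping below background. The 8 h controls of Crh were below background as well, so that value has no exact size. Crh was also tested only because of its 8 h KA arrays, so its p carries no more than the values themselves. For Nts it was -1.85 (adjusted p = 0.000569), again with every 8 h KA array above every 8 h control and the 14 d groups overlapping, 1 of the 14 d controls above background. For Sst it was -0.67 (adjusted p = 0.0107), with all arrays above background. The 8 h KA arrays are the ones that also stand apart in Xist and Eif2s3y, and the part of that difference in these 3 results cannot be told apart from KA.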

How the results depend on the processing

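The rises of Crh, Nts and Sst at 8 h kept direction and call under all 26 alternatives. They were 2.73 to 2.78, 1.44 to 1.99 and 0.67 to 0.77 (log2). Their differences of changes kept both under all 25, except Sst at a threshold of 0.01, where its adjusted p of 0.0107 (limma) missed. For Crh the calls without a KA array at 8 h are no further support. It passed the filter only through those 3 arrays, and the filter was not repeated with arrays left out. With no filter, 5 members were called higher at 8 h, where 6.35% of 17097 genes were. Those beyond Crh, Nts and Sst were Adcyap1, below background on all 12 arrays, and Trh, above it on 1. With array weights 1 member was called higher and 2 lower at 14 d, where 15.2% of all genes tested were called in that fit.

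Tac1 depended on the probe set. With the mean of its probe sets its changes were 0.59 at 8 h, 0.15 at 14 d and -0.44 for the difference. With its other probe set, an alternative chosen after seeing the data, they were 1.14, 0.37 and -0.77, and 0.0362 between controls. Small changes that did not pass the test turned sign. Under cyclic loess these were Cort at 8 h (0.000269), Gad1 at 8 h (0.0559) and Vip between controls (-0.0016). Under array weights they were Cort at 8 h (0.0168), Crh at 14 d (-0.0191) and between controls Crh (0.0256) and Tac2 (0.0401). Without the third array of every group they were Tac1 at 8 h (-0.0014), at 14 d (0.0433) and for the difference (0.0447), Crh at 14 d (-0.12) and between controls (0.0774), Tac2 for the difference (-0.0670) and between controls (0.0187), and Vip for the difference (0.0359).

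Leaving out single arrays also turned signs of changes that did not pass. At 8 h the ranges were -0.0613 to 0.0555 for Cort, -0.0633 to 0.0741 for Gad1, -0.0064 to 0.0713 for Tac1 and -0.0046 to 0.51 for Tac2. At 14 d they were -0.17 to 0.0639 for Nts, -0.0284 to 0.18 for Crh, -0.0689 to 0.13 for Sst and -0.22 to 0.0356 for Tac1. For the difference they were -0.0808 to 0.43 for Tac2 and -0.16 to 0.12 for Vip. Between controls they were -0.0749 to 0.11 for Vip, -0.19 to 0.0631 for Nts, -0.12 to 0.0887 for Crh and -0.16 to 0.0094 for Tac2.

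Counts over all genes also moved. They are given at 8 h, at 14 d, for the difference and between controls in that order. In the main fit 2420, 354, 764 and 249 of 13853 genes were called. Over every probe set 4843, 551, 1478 and 445 of 32790 probe sets were, a count of another unit with a larger total. At a threshold of 0.01 the gene counts were 1352, 170, 346 and 64. With array weights 2099, 2168 and 1336 were called at 14 d, for the difference and between controls, and with the replicate block 599, 1214 and 570, the block changing no call on a member. The 2 control groups alone gave 543. With single arrays left out the counts ranged from 196 to 457 at 14 d, from 508 to 902 for the difference and from 86 to 421 between controls. Signal near background limits Crh, Nts, Adcyap1, Trh and the first probe set of Tac1.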
